A study of Mus musculus with 6 samples.

Results

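The genes described here are 6 lymphoid homing and egress genes of the mouse, S1pr1, S1pr4, Ccr7, Cd69, Igfbp4 and Dapl1, taken by gene symbol from the 27998 genes that the count tables list. They were followed in liver, spleen and lymph node within invariant natural killer T (iNKT) cells, T cells whose receptor reads lipid antigens presented by CD1d. All libraries came from wild-type C57BL/6 mice of 5 weeks with no treatment, and each organ had 2 libraries, which the study's methods call biological repeats. Cells positive for CD8 or B220 had been removed, and what remained was sorted on a CD1d tetramer together with TCR-β staining. The 3′ ends of transcripts were counted as unique molecular identifiers (UMIs), so that 1 UMI stands for 1 captured RNA molecule.

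S1PR1 and S1PR4 are receptors for sphingosine 1-phosphate, a lipid that is abundant in blood and lymph and low inside tissues, and S1PR1 lets T cells follow this gradient out of the thymus and of lymphoid organs. CD69 binds S1PR1 and removes it from the cell surface, and it appears early after T cell activation. CCR7 guides T cells into lymph nodes toward its chemokines, and the transcription factor KLF2 is known to drive S1pr1 in T cells. IGFBP4 is a secreted protein that binds insulin-like growth factors, and DAPL1 is a small relative of the autophagy regulator DAP.

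In the GRCm38 assembly with GENCODE vM21 annotation, S1pr1 (ENSMUSG00000045092) lies on chromosome 3 from 115710433 to 115715072 on the minus strand and S1pr4 (ENSMUSG00000044199) on chromosome 10 from 81497747 to 81500132 on the minus strand. Ccr7 (ENSMUSG00000037944) lies on chromosome 11 from 99144196 to 99155077 on the minus strand and Cd69 (ENSMUSG00000030156) on chromosome 6 from 129267325 to 129275436 on the minus strand. Igfbp4 (ENSMUSG00000017493) lies on chromosome 11 from 99041244 to 99054392 on the plus strand and Dapl1 (ENSMUSG00000026989) on chromosome 2 from 59484653 to 59505020 on the plus strand. None of the 6 overlaps another annotated gene. Igfbp4 and Ccr7 are close neighbours, 89803 bases apart with 1 gene, Tns4, between them.

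Promoter sequence was matched by symbol for 3 of the 6 genes, and the 250 bases before the transcription start are shown because Igfbp4 and Dapl1 were both low in liver while S1pr4 was not. The sequences are from RefSeq (GRCm38.p6), written 5′ to 3′ along the strand of the gene. Capitals mark the letters CACCC or, for the other strand, GGGTG, the core that Krüppel-like factors such as KLF2 bind, and TATAAA or, for the other strand, TTTATA, the TATA box. The motifs were searched on both strands and do not overlap. The windows are chr2:59484403-59484652 (plus strand) for Dapl1, chr10:81500138-81500387 (minus strand) for S1pr4 and chr11:99040994-99041243 (plus strand) for Igfbp4.
Dapl1: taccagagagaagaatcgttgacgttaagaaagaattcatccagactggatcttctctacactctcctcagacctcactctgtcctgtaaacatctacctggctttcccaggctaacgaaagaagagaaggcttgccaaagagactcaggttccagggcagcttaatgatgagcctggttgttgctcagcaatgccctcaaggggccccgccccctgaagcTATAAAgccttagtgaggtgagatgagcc
S1pr4: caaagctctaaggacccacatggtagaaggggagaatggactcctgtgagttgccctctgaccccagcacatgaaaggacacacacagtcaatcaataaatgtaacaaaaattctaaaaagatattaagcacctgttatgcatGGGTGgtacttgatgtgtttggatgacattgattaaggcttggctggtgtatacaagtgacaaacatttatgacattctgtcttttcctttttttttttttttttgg
Igfbp4: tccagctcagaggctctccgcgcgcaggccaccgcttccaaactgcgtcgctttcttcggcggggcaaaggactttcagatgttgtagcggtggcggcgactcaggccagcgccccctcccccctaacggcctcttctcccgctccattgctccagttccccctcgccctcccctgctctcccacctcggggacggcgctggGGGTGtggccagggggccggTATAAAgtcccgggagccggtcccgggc
The CACCC letters occurred once each before S1pr4 and Igfbp4 and in 52.0% of 32851 windows of the same length before mouse genes, and TATAAA, found before Dapl1 and Igfbp4, in 12.4% of them. A match describes these letters and is not a binding site.

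The libraries held 4768016 to 11086603 UMIs and a median of 1470 to 3592 UMIs per cell, with the 2 liver libraries the deepest, and 16532 of 16587 barcodes were kept (5662 liver, 5384 spleen and 5486 lymph node cells). A total of 148 of 16436 distinct barcodes occurred in more than 1 library. The T cell and iNKT genes Cd3d, Cd3e, Cd3g and Zbtb16 summed to 4425 to 5707 CPM (counts scaled to the same library total) in a library, while the genes of the T cell receptor chains were not analysed here. Of the cell types that the sort removes or that the organs hold, B cell genes summed to 2.80 to 18.0 CPM, CD8 T cell genes to 2.47 to 7.08, hepatocyte genes to 1.66 to 4.06 and myeloid genes to 202 to 366. The NK cell and ILC1 genes (Ncr1, Eomes and Klre1) moved with organ, at 143 and 171 CPM for the liver libraries, 61.2 and 54.9 for spleen and 11.6 and 13.003 for lymph node. Klre1 was also a leading gene of the Gzma-like cells described further on, so the sum does not count NK cells and ILC1 alone. Gzma-like cells were 14.1% and 16.7% of liver, 5.24% and 5.84% of spleen and 0.720% and 1.09% of lymph node cells. The part of NK cells and ILC1 in the results was not tested. Xist was present in liver and spleen libraries and had 0 UMIs in both lymph node libraries, while the Y-chromosome genes Ddx3y, Eif2s3y, Kdm5d and Uty were present in lymph node only. Organ and sex therefore cannot be told apart in any comparison with lymph node.

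The first question was how the level of each gene differed between the organs. The libraries were compared with the UMIs of all cells summed per library, in edgeR's quasi-likelihood test with all 6 libraries in 1 fit and Benjamini-Hochberg adjustment over 10167 genes. Levels are CPM scaled by the trimmed mean of M values (TMM) and given as mean ± SD of n = 2, and folds are log2 of the first organ over the next with the standard error (SE). The 3 comparisons share libraries in pairs. All 6 genes passed the filter on low counts. Dapl1 passed only through its level in lymph node, so that it had to differ there, and its lymph node folds are given as a description with no test.

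S1pr1 was lowest in liver. The liver libraries stood at 24.8 and 26.8 CPM, those of spleen at 52.9 and 56.2, and those of lymph node at 50.2 and 50.9. The means were 25.8 ± 1.41, 54.6 ± 2.37 and 50.6 ± 0.461, and the liver libraries did not overlap the others. The log2 fold was −1.08 (SE 0.15) for liver over spleen (edgeR adjusted p 2.26e-06) and −0.97 (SE 0.15) for liver over lymph node (adjusted p 3.52e-06). Between spleen and lymph node the fold was 0.11 (SE 0.15; edgeR adjusted p 0.680), and its sign turned to −0.37 (adjusted p 0.119) without the RTE-like cells described further on.

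S1pr4, the receptor related to S1pr1 that is found mostly in blood and lymphoid cells, was highest in liver and lowest in lymph node. The liver libraries held 169 and 144 CPM, the spleen libraries 143 and 126, and the lymph node libraries 116 and 109.6. The means were 157 ± 18.0, 135 ± 11.6 and 113 ± 4.64, with neighbouring organs close together and the lower liver library just above the higher spleen library. Only the step from liver to lymph node passed the test, with a log2 fold of 0.47 (SE 0.12; edgeR adjusted p 0.00222). Liver over spleen was 0.22 (SE 0.12; adjusted p 0.181) and spleen over lymph node 0.26 (SE 0.12; adjusted p 0.166). Without liver library 1 the liver over lymph node fold was 0.35 and no longer passed.

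Ccr7 was low in liver, with the other organs close together. Liver had 9.72 and 9.82 CPM, spleen 31.8 and 30.9, and lymph node 34.0 and 25.6, with means of 9.77 ± 0.0702, 31.4 ± 0.673 and 29.8 ± 5.98. Spleen lay inside the range of lymph node, and liver was below every other library. The log2 fold was −1.68 (SE 0.20) for liver over spleen (edgeR adjusted p 2.15e-07) and −1.61 (SE 0.20) for liver over lymph node (adjusted p 9.41e-08), against 0.07 (SE 0.19; adjusted p 0.844) for spleen over lymph node. In liver, 47 and 29 cells had a Ccr7 UMI, and single cells gave 8 and 7 UMIs (11.1% and 11.7% of the Ccr7 UMIs of their library).

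Cd69, the antagonist of S1PR1 at the cell surface, was highest in lymph node and lowest in spleen. Liver had 93.4 and 115 CPM, spleen 81.6 and 79.5, and lymph node 133 and 160.5, with no overlap between organs (104 ± 14.9, 80.5 ± 1.43 and 147 ± 19.1). Spleen over lymph node had a log2 fold of −0.87 (SE 0.13; edgeR adjusted p 6.42e-06) and liver over lymph node −0.50 (SE 0.13; adjusted p 0.00178). Liver over spleen was smaller at 0.37 (SE 0.13; adjusted p 0.0367), and in DESeq2 it did not pass (0.36; adjusted p 0.153). Without liver library 1 or lymph node library 2 the liver over lymph node fold was −0.36 and did not pass either.

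Igfbp4, like Ccr7, was low in liver. The liver libraries held 7.42 and 2.62 CPM, the spleen libraries 25.8 and 21.3, and the lymph node libraries 27.5 and 27.3, so that the lowest library outside liver was well above both liver libraries. The means were 5.02 ± 3.40, 23.5 ± 3.19 and 27.4 ± 0.141. Liver over spleen was −2.18 (SE 0.29; edgeR adjusted p 1.74e-05), liver over lymph node −2.39 (SE 0.29; adjusted p 1.07e-06) and spleen over lymph node −0.21 (SE 0.26; adjusted p 0.634). In liver library 1 a single cell gave 12 of the Igfbp4 UMIs (21.8%), and only 23 and 12 liver cells had one, against 77 and 58 for spleen and 83 and 86 for lymph node.

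Dapl1 was close to a lymph node transcript. The liver libraries held 2 and 2 Dapl1 UMIs, the spleen libraries 14 and 1, and the lymph node libraries 83 and 63, in 2 and 1, 7 and 1, and 35 and 31 cells. This came to 0.270 and 0.327 CPM for liver, 3.68 and 0.291 for spleen, and 22.8 and 17.5 for lymph node, with the liver and spleen libraries overlapping. The means were 0.299 ± 0.0405, 1.99 ± 2.40 and 20.2 ± 3.72. Liver over lymph node was −5.97 (SE 0.53) and spleen over lymph node −3.27 (SE 0.44). Spleen over lymph node was −5.99 without spleen library 1 and −2.45 without spleen library 2. The call for liver over spleen (−2.69, SE 0.84; adjusted p 0.0216) rests on spleen library 1, where 1 cell held 5 of the 14 UMIs (35.7%), and without that library the fold was 0.02.

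**Figure D1:**
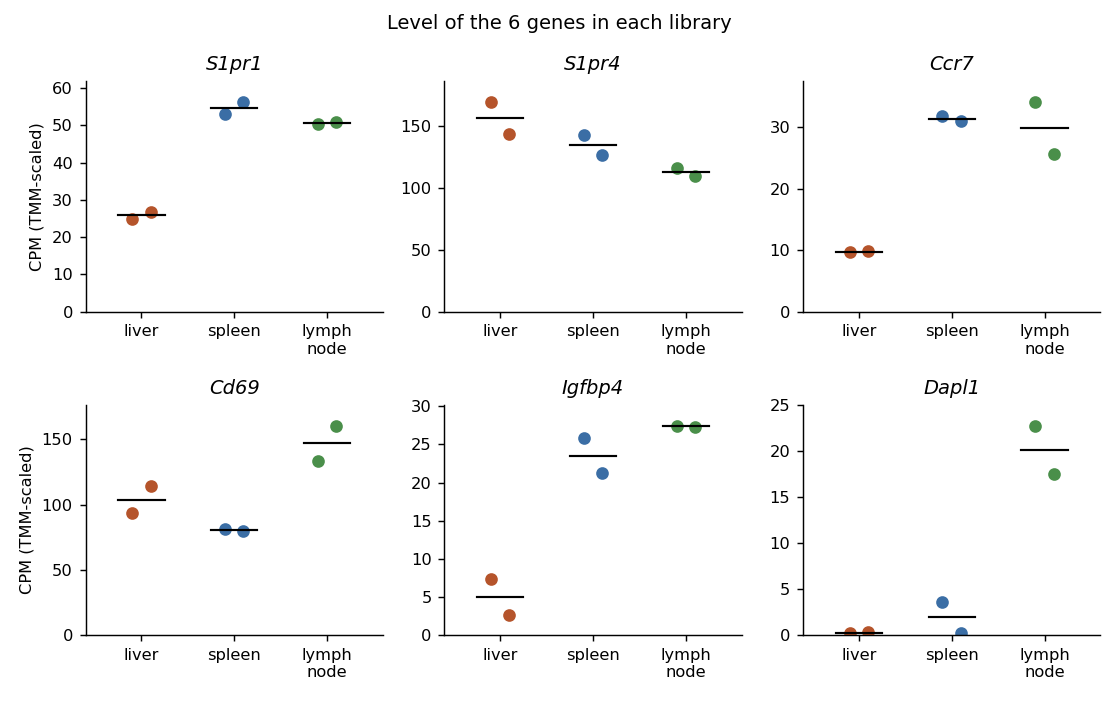
Level of each of the 6 genes in every library, in TMM-scaled CPM on an axis from 0, with 1 point per library and a bar at the organ mean (n = 2). S1pr1, Ccr7 and Igfbp4 are low in both liver libraries, S1pr4 descends from liver to lymph node, Cd69 is highest in lymph node, and Dapl1 reaches 22.8 and 17.5 CPM in lymph node against at most 3.68 elsewhere.

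Dapl1 aside, 4 of the other 5 genes were called between liver and spleen, where 25.8% of all genes tested were called, and 5 of 5 between liver and lymph node, where 37.6% were. Between spleen and lymph node 1 of 5 was called, Cd69, beside 18.3% of all genes. For S1pr1, Ccr7 and Igfbp4, the spleen mean was 2.11, 3.21 and 4.69 times that of liver and the lymph node mean 1.96, 3.05 and 5.45 times. The Igfbp4 ratios depend on liver library 1, without which the log2 folds were −3.15 for liver over spleen and −3.37 for liver over lymph node. The spread was smaller for Cd69, at 1.82 times between lymph node and spleen, and for S1pr4, at 1.39 times between liver and lymph node.

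**Figure D2:**
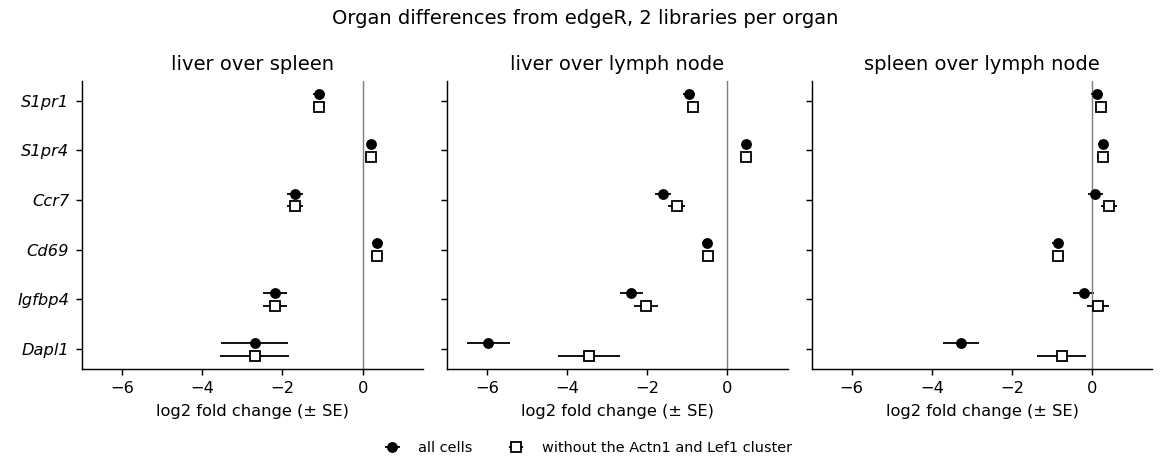
Log2 fold change with its SE for each gene in the 3 organ comparisons from edgeR (2 libraries per organ), for all cells (filled circles) and without the cells of the Actn1 and Lef1 cluster (open squares). The values of both settings lie together for S1pr1, S1pr4 and Cd69, whereas the Dapl1 fold for spleen over lymph node shrinks from −3.27 to −0.76.

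The liver libraries were sequenced more deeply, so the share of cells with a UMI of each gene was also taken after thinning every cell of at least 1000 UMIs to 1000 UMIs. This left out 0 and 9 liver, 144 and 169 spleen and 265 and 488 lymph node cells. S1pr1 was then found in 1.21% and 1.82% of liver, 2.94% and 3.46% of spleen and 3.83% and 4.15% of lymph node cells. Unthinned, its mean shares were nearly level at 5.56%, 6.19% and 6.04%. Ccr7 was found in 0.428% and 0.491%, 1.43% and 1.33%, and 1.85% and 1.82% of cells, and Igfbp4 in 0.250% and 0.105%, 1.35% and 1.13%, and 1.64% and 2.20%. The liver libraries had the lowest shares of all 3 genes.

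S1pr4 was detected in 10.8% and 9.33% of liver, 9.52% and 8.69% of spleen and 8.05% and 7.75% of lymph node cells, against unthinned means of 29.4%, 16.0% and 13.4%. Cd69 was found in 6.03% and 6.49% of liver, 5.45% and 5.75% of spleen and 7.96% and 9.96% of lymph node cells. Without thinning, liver came first for Cd69 (18.1%, 8.91% and 14.5%), which goes against the CPM. The thinned cells with Dapl1 numbered 1 and 0 for liver, 5 and 1 for spleen and 23 and 18 for lymph node. An exact permutation test (F statistic over organs, 15 arrangements of the 6 libraries as 3 pairs) gave p 0.0667, the smallest this design can give, for S1pr1, Ccr7, Cd69 and Igfbp4, and p 0.133 for S1pr4. With another seed for the thinning, the exact p was 0.133 for S1pr1 and Cd69 and 0.0667 for S1pr4.

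The next question was which cells carried these transcripts. Cells of all libraries were clustered with the 6 genes left out, and clusters were named "-like" from marker lists that do not hold them, so the values by cluster are descriptions with no test. Recent thymic emigrant-like (RTE-like) cells, chosen by markers such as Klf2, Lef1 and Satb1, were 3.00% and 4.82% of liver, 19.4% and 15.9% of spleen and 1.78% and 1.09% of lymph node cells. iNKT1-like cells were the clusters left without another class name whose iNKT1 markers had a median log2 fold above 0. They made up 55.4% and 42.5% of liver, 51.1% and 53.1% of spleen and 1.36% and 2.49% of lymph node cells. Tbx21 and Il2rb, both among those markers, stood at 124 and 682 CPM there, 128 and 782 in Gzma-like and 135 and 541 in NF-kB-like cells. The study places its main lymph node cluster among iNKT1 cells, so this class is not the study's iNKT1 subset. iNKT17-like cells, with Il23r and Ccr6, made up 0.928% and 1.43%, 1.87% and 1.39%, and 32.8% and 36.2%. A separate cluster of 157 cells, with Actn1 and Lef1 among its leading genes, held 82 and 72 lymph node cells and 3 cells of the other organs, and was left without a name.

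Among the classes and clusters in the plot by class, S1pr1, Ccr7 and Igfbp4 were highest in the same 2 with the 6 libraries summed. This order did not hold within each organ. In thinned liver cells S1pr1 was found in 7.46% of iNKT17-like and 6.76% of RTE-like cells. In thinned spleen cells, cycling cells had the larger shares for S1pr1 (8.05% against 6.95% of RTE-like cells), Ccr7 (4.03% against 3.64%) and Igfbp4 (4.70% against 2.78%). A pair of small clusters is not in that plot, with 212 CPM of Ccr7 in 30 B-cell-like and myeloid-like cells (12 UMIs) and 182 CPM of S1pr1 in an unnamed cluster of 47 cells (8 UMIs). With the 6 libraries summed, RTE-like cells had 105 CPM of S1pr1, 79.1 of Ccr7 and 50.2 of Igfbp4, against 18.5, 4.74 and 2.74 in iNKT1-like and 70.4, 14.7 and 18.0 in iNKT17-like cells. Over the libraries with at least 10 RTE-like cells, S1pr1 ranged from 73.9 to 164 CPM, Ccr7 from 45.0 to 128 and Igfbp4 from 12.9 to 205. The Actn1 and Lef1 cluster had 241, 328 and 314 CPM of the 3 genes. Before thinning, 16.0% of RTE-like cells had an S1pr1 UMI, 11.3% a Ccr7 UMI and 7.03% an Igfbp4 UMI. In Gzma-like cells, an iNKT1-related group of like depth (median 2662 UMIs against 2556 in RTE-like cells), the shares for Ccr7 and Igfbp4 were 0.491% and 0.409%.

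S1pr1 UMIs in Gzma-like cells came to 47.2 CPM (0 to 93.1 over libraries) and those of S1pr4 to 184 CPM. In thinned liver cells S1pr1 was found in 2.06% of Gzma-like and 0.966% of NF-kB-like cells, beside 6.76% of RTE-like cells. In thinned spleen cells it was found in 5.96% of Gzma-like cells, near the 6.95% of RTE-like cells, and in 1.22% of NF-kB-like cells. The part of free RNA in the droplets was not tested. S1pr4 was the most even of the 6 genes over the 10 classes and clusters in the plot, with 103 to 184 CPM. Cd69 ran against S1pr1 in RTE-like cells, where it was lowest with the libraries summed (43.4 CPM, 30.6 to 76.7 over libraries), and was high in Ifit-like cells with an interferon response (263 CPM, 194 to 317) and in NF-kB-like cells (157 CPM, 92.0 to 453). The Actn1 and Lef1 cluster combined high S1pr1 with 254 CPM of Cd69, but its lymph node libraries differed widely there (97.7 and 457 CPM). Dapl1 was at 809 CPM in that cluster and at most 5.45 CPM in the other classes shown in the plot by class. No Dapl1 UMI was found in 1223 Gzma-like or 739 NF-kB-like cells, which allows shares of up to 0.245% and 0.406% and limits cells with a UMI, not cells that express the gene.

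**Figure D3:**
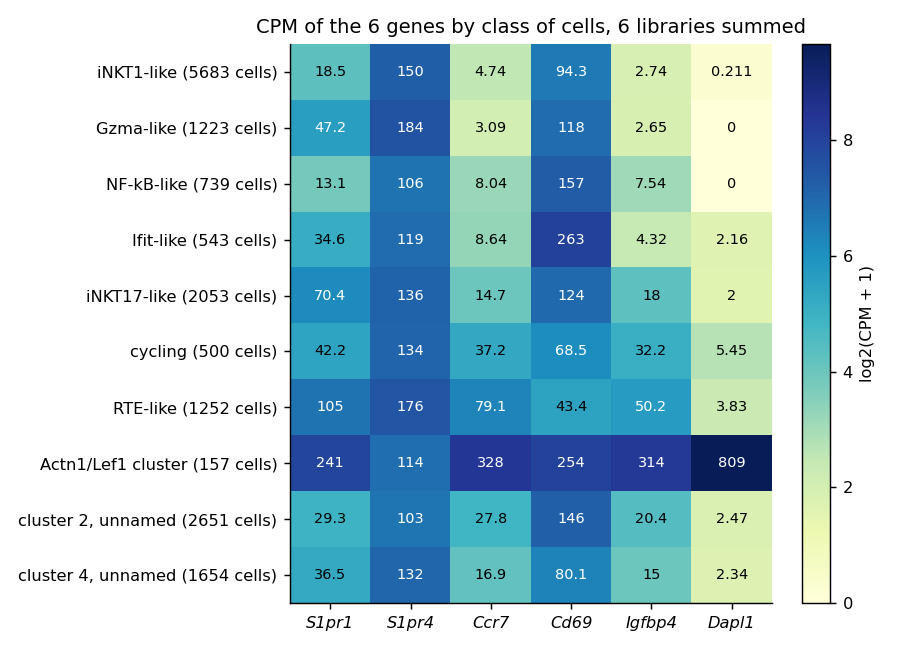
CPM of the 6 genes in each class or cluster with the 6 libraries summed (printed in each box) and, as colour, log2(CPM + 1). The Actn1 and Lef1 cluster is dark for S1pr1, Ccr7, Igfbp4 and Dapl1, RTE-like cells come next for S1pr1, Ccr7 and Igfbp4 and are lowest for Cd69, and the S1pr4 column is nearly even (103 to 184 CPM).

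The organs drew on these cells in different proportions. In spleen, RTE-like cells supplied 183 of 394 S1pr1 UMIs (46.4%), 129 of 227 Ccr7 UMIs (56.8%) and 85 of 171 Igfbp4 UMIs (49.7%), but 10.6% of the Cd69 UMIs. In lymph node, the largest source of several genes was an unnamed cluster that made up 48.6% and 45.1% of the cells, with 87 of 216 Ccr7 UMIs (40.3%), 65 of 198 Igfbp4 UMIs (32.8%) and 460 of 1063 Cd69 UMIs (43.3%). There, iNKT17-like cells supplied 173 of 366 S1pr1 UMIs (47.3%), and the Actn1 and Lef1 cluster 121 of 146 Dapl1 UMIs (82.9%), 47 of 198 Igfbp4 UMIs (23.7%) and 49 of 216 Ccr7 UMIs (22.7%). In liver, RTE-like cells gave 43 of 132 Ccr7 UMIs (32.6%) and 17 of 71 Igfbp4 UMIs (23.9%), cycling cells 29 (22.0%) and 26 (36.6%), and iNKT1-like cells 48.9% of S1pr4 and 42.0% of Cd69 UMIs. The B-cell-like and myeloid-like cells of liver held 12 of its Ccr7 UMIs (9.09%).

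The lymph node cluster that held most of the Dapl1 was described further, with markers chosen after it had been seen. Its lymph node libraries had 69 and 52 Dapl1 UMIs in 30.5% and 27.8% of their cells (843 and 819 CPM). Ccr7 stood at 367 and 299 CPM, Igfbp4 at 342 and 299, S1pr1 at 305 and 157, and S1pr4 at 134 and 78.7. The 154 cells had a Cd3e UMI in 58.4% and a Zbtb16 UMI, for the iNKT lineage factor PLZF, in 0.649%, against 72.1% and 10.99% of the 5332 other lymph node cells, at median depths of 1346.5 and 1603.5 UMIs. Cd44 was found in 3.25% against 18.2%, Lef1 in 66.9% against 14.3%, Klf2 in 59.1% against 14.0% and Cd4 in 8.44% against 3.47%. Cd8a was at 0 in both sets and Cd8b1 was found in 1 cell of the cluster.

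Leaving this cluster out, a step chosen after seeing the data, lowered the Dapl1 folds for lymph node. Liver over lymph node became −3.46 (SE 0.77) and spleen over lymph node −0.76 (SE 0.61). The liver over lymph node folds kept their calls for Ccr7 (−1.27; edgeR adjusted p 1.16e-05), Igfbp4 (−2.03; adjusted p 1.89e-05) and S1pr1 (−0.86; adjusted p 3.46e-05). Leaving out the RTE-like cells instead, liver over spleen became −0.68 for S1pr1 (adjusted p 0.00375), −1.34 for Ccr7 (adjusted p 0.000337) and −1.89 for Igfbp4 (adjusted p 0.000141), all still called. Ccr7 was then also lower in spleen than in lymph node (−0.70; edgeR adjusted p 0.0296).

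Within iNKT1-like cells the organs were compared again on sums per library of 1553 and 1217 liver, 1395 and 1411 spleen and 36 and 71 lymph node cells, the liver and spleen cells coming mostly from different clusters. Dapl1 was too low to be tested here, and the other five were. Ccr7 had 9 and 3 UMIs in liver and 12 and 18 in spleen (2.40 and 1.29 against 7.73 and 13.1 CPM), and Igfbp4 had 2 and 2 against 8 and 10. Liver was lower for Ccr7 (log2 fold −2.34, SE 0.55; edgeR adjusted p 0.000385) and Igfbp4 (−3.08, SE 0.78; adjusted p 0.00129) and higher for S1pr4 (0.43, SE 0.15; adjusted p 0.0216), with S1pr4 at 184 and 152 CPM in liver and 126 and 124 in spleen. S1pr1 (−0.35; adjusted p 0.447) and Cd69 (−0.10; adjusted p 0.701) did not pass, so 3 of 5 were called beside 19.3% of 8732 genes. The count was 1 without liver library 1, where Ccr7 stayed called (adjusted p 0.0150). Without spleen library 2, the adjusted p values of Ccr7, Igfbp4 and S1pr4 were 0.133, 0.0989 and 0.195.

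The few lymph node iNKT1-like cells gave less. Igfbp4 had 3 and 1 UMIs there and a liver over lymph node fold of −5.43 (SE 1.40). It needed the lymph node libraries to pass the filter on low counts, so this fold is a description with no test. The liver over lymph node folds of the other 4 genes did not pass, beside 2.86% of all genes called. S1pr1 stood at 0 and 104 CPM in the lymph node libraries, which shows the spread at this number of cells. For spleen over lymph node, 1.66% of genes were called, and the folds of the 5 genes did not pass.

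In iNKT17-like cells (26 and 41 liver, 51 and 37 spleen, 866 and 1032 lymph node cells) only S1pr1, S1pr4 and Cd69 were high enough to be tested. S1pr4 was highest in liver, with 400.3 and 330 CPM against 207 and 225 for spleen and 178 and 151 for lymph node. Its fold for liver over lymph node was 1.15 (SE 0.26; edgeR adjusted p 0.000927), the only call of 3 beside 16.5% of 1891 genes. Without liver library 1 it was 0.98 (adjusted p 0.0829). S1pr1 had 262 and 86.1, 148 and 102, and 78.2 and 90.4 CPM (1.01 for liver over lymph node; adjusted p 0.0780), and without liver library 2 it also passed (1.60; adjusted p 0.0236). Cd69 had 92.4 and 129, 148 and 61.4, and 162 and 174 CPM (−0.60; adjusted p 0.282). For the 3 genes, liver over spleen and spleen over lymph node did not pass, with S1pr4 at 0.76 (adjusted p 0.287) and 0.39 (adjusted p 0.615), beside 3.17% and 4.87% of genes called.

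Whether an organ effect differed between iNKT17-like and iNKT1-like cells was tested as an interaction in edgeR over 8148 genes, of which 0.221% were called for liver over spleen, 0.601% for liver over lymph node and 0.687% for spleen over lymph node. For Igfbp4, liver over lymph node gave 7.08 (SE 1.81), from 9 and 0 liver and 20 and 24 lymph node UMIs in iNKT17-like cells. In iNKT1-like cells it had 2 and 2 liver and 3 and 1 lymph node UMIs. Igfbp4 was too low to be tested in iNKT17-like cells alone and needed the lymph node libraries to pass in iNKT1-like cells. The value of 7.08 is therefore a description with no test. The other differences among the 5 genes did not pass. After thinning, Igfbp4 was found in 0 of 67 liver iNKT17-like cells, which allows a share of up to 4.48%, and in 19 of 1783 for lymph node (1.07%). As 4.48% lies above 1.07%, the thinned cells cannot show whether liver was higher. The difference for S1pr4 was 0.68 (SE 0.47; adjusted p 0.811) for liver over lymph node.

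Whether the 6 genes occur in the same cells was described by co-detection in the thinned cells, as the number of cells with both genes over the number expected in each library if the genes were independent, summed over libraries. The strongest pairs joined Ccr7, Igfbp4 and Dapl1. Ccr7 and Igfbp4 were found together in 16 cells against 2.59 expected (6.18 times), of which liver held 1 and 0, spleen 3 and 1 and lymph node 7 and 4. Igfbp4 and Dapl1 shared 9 cells against 0.856 (10.5 times) and Ccr7 and Dapl1 8 cells against 0.844 (9.48 times). S1pr1 and Ccr7 shared 16 cells against 6.10 (2.62 times, above 1 in 5 of 6 libraries).

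Ratios for S1pr4 and Cd69 with S1pr1, Ccr7 and Igfbp4 were nearer to 1. S1pr4 was found with Ccr7 in 14 cells against 15.9 expected and with Igfbp4 in 11 against 14.0, and with S1pr1 in 44 against 38.1 (1.15 times, and 1.45 without thinning). Its pairs with Dapl1 (7 cells against 3.92, 1.79 times) and Klf2 (196 against 155, 1.27 times) were further above 1. Cd69 was found with S1pr1 in 36 cells against 31.5, with Ccr7 in 12 against 13.3 and with Igfbp4 in 11 against 12.4. Klf2 was found with S1pr1 in 100 cells against 51.9 (1.93 times, above 1 in 6 of 6 libraries), with Ccr7 in 50 against 22.1 and with Igfbp4 in 46 against 20.3 (2.27 times each). With Cd69, Klf2 was found in 109 cells against 116.

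**Figure D4:**
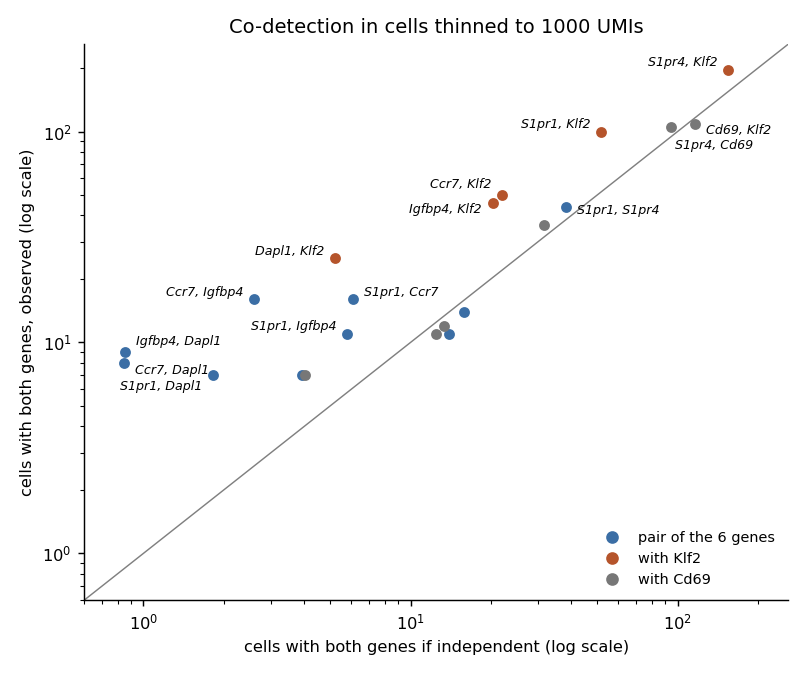
Cells with both genes of a pair (y axis, log scale) against the number expected if the genes were independent within each library (x axis, log scale), in cells thinned to 1000 UMIs and summed over 6 libraries, with the line of equality. Pairs of Ccr7, Igfbp4, Dapl1 and S1pr1, and their pairs with Klf2, lie above the line (16 cells against 2.59 for Ccr7 and Igfbp4), while pairs with Cd69 lie near it apart from the 7 cells with Cd69 and Dapl1.

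Much of this co-detection followed the clusters. With the expected number computed within class and library, the ratio fell from 6.18 to 1.94 for Ccr7 with Igfbp4, from 2.62 to 1.52 for S1pr1 with Ccr7, from 1.93 to 1.25 for S1pr1 with Klf2 and from 10.5 to 1.36 for Igfbp4 with Dapl1. Without the Actn1 and Lef1 cluster, Ccr7 with Igfbp4 remained at 9 cells against 1.84 (4.89 times), whereas Igfbp4 with Dapl1 had 0 cells against 0.221. Of 15457 thinned cells, 118 (0.763%) had at least 2 of the 5 genes other than Cd69. They included 33 of 123 cells in the Actn1 and Lef1 cluster (26.8%), 24 of 1231 RTE-like cells (1.95%) and 7 of 5494 iNKT1-like cells (0.127%). At least 3 of the 5 genes were found in 11 cells. Several of these ratios rest on few cells, and S1pr1 with Igfbp4 (1.90) came to 3.69 with another seed for the thinning. With that seed, S1pr4 and Ccr7 shared 2 cells against 16.1. S1pr1 with Ccr7 was at 4.50 with cells thinned to 500 UMIs and at 1.23 with 2000.

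Cd69 was set beside 12 immediate early genes such as Fos and Fosb, which respond within minutes to stimulation and to handling of cells. Their summed level was 1658 and 1806 CPM in liver, 2635 and 2219 for spleen and 9065 and 9886 for lymph node, and all 12 were called higher in lymph node than in either other organ. In lymph node, Cd69 was found in 5.66% and 8.98% of thinned cells with 1 to 2 of these genes, in 7.95% and 9.85% with 3 to 5, and in 16.9% and 13.9% with 6 to 12. The exact 95% binomial intervals, which cover counting error only, were 4.06% to 7.66% at 1 to 2 and 12.0% to 22.8% at 6 to 12 genes in library 1. In library 2 they overlapped, at 6.82% to 11.6% and 9.93% to 18.7%. In liver, the Cd69 shares at 0, 1 to 2 and 3 to 5 genes were 5.61%, 6.27% and 6.18% for library 1 and 5.00%, 6.84% and 9.86% for library 2. In spleen they were 4.41%, 4.51% and 9.59% for library 1 and 3.36%, 5.95% and 8.49% for library 2. Cells with 6 to 12 of the genes were 8.47% and 10.97% of lymph node cells and numbered 0 in liver and 0 and 3 in spleen. The part of these genes in the Cd69 difference between organs was not tested.

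**Figure D5:**
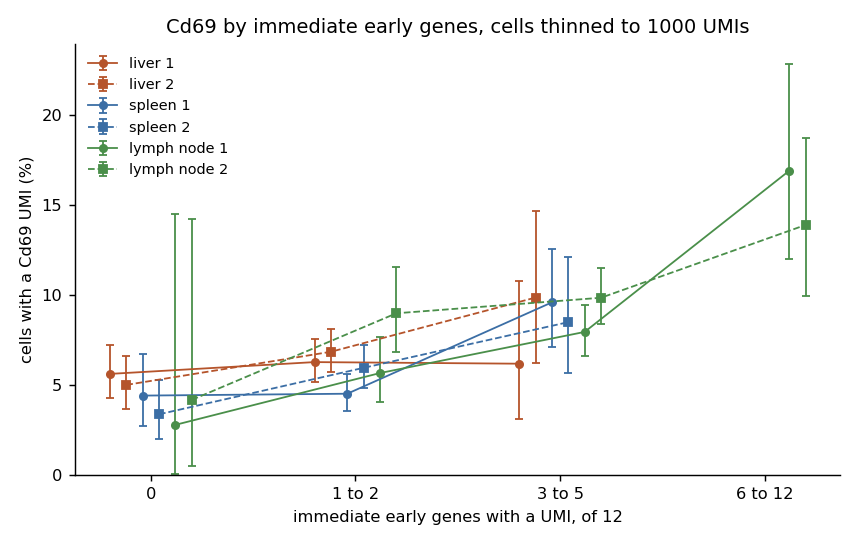
Share of thinned cells with a Cd69 UMI (y axis, percent) by the number of 12 immediate early genes with a UMI in the cell (x axis), with 1 line per library and exact 95% binomial intervals. In both lymph node libraries the share is highest at 6 to 12 genes (16.9% and 13.9%), a group of cells that liver lacks, and at 1 to 2 genes the libraries lie between 4.51% and 8.98%.

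Other genes of these pathways were counted in the same fit of all cells, from lists chosen with earlier results of these data known. Each count stands beside 25.8% of all genes called for liver over spleen, 37.6% for liver over lymph node and 18.3% for spleen over lymph node. Of 13 S1P pathway genes 10 were tested. Compared with spleen, 4 were higher in liver and no gene was called lower, compared with lymph node 2 were higher and 2 lower, and 1 was higher and 3 lower in spleen than in lymph node (median log2 folds 0.29, −0.03 and −0.31). Across all genes tested these medians were 0.02, 0.01 and 0.00. S1pr2, a receptor that restrains migration, had 17.1 and 16.4 CPM in liver, 10.3 and 6.41 for spleen and 8.24 and 7.23 for lymph node (liver over lymph node 1.11; edgeR adjusted p 0.000768). The kinase Adrbk1 (Grk2), which desensitises S1PR1 to its ligand in blood, fell from liver to lymph node (0.89 for liver over lymph node; adjusted p 2.16e-06). The G protein subunit Gnai2, through which S1PR1 and CCR7 signal, was highest in lymph node (spleen over lymph node −0.90; adjusted p 6.44e-07).

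For lymph node entry, 17 of 18 genes were tested, with 5 higher and 4 lower in liver than in spleen, 7 and 5 against lymph node, and 6 and 3 in spleen against lymph node (medians 0.00, 0.20 and 0.12). The oxysterol receptor Gpr183 rose from 16.9 and 15.5 CPM in liver to 33.7 and 32.0 for spleen and 137 and 126 for lymph node, with liver over lymph node at −3.01 (adjusted p 8.71e-18). Itga4, an integrin subunit, was lowest in lymph node (spleen over lymph node 1.26; adjusted p 9.94e-06).

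Of 11 genes of the motility machinery 6 were higher and 1 lower in liver than in spleen, and 7 higher with none called lower in liver against lymph node, while 3 were higher in spleen than in lymph node (medians 0.32, 0.57 and 0.25). Wipf1 and Dock8, regulators of actin, were higher in liver than in lymph node by 0.91 and 0.80 (edgeR adjusted p 8.25e-08 and 2.02e-05), and the Ras regulator Rasal3 by 0.75 (adjusted p 0.000107). Of 14 tissue retention genes, 4 were higher and 2 lower in liver than in spleen, 8 and 6 against lymph node, and 5 and 4 in spleen against lymph node (medians 0.16, 0.50 and 0.42). Itga1, an integrin subunit that binds collagen, had 15.4 and 12.4 CPM in liver and at most 3.50 elsewhere. Itgae, which pairs to bind E-cadherin, had 98.8 and 81.5 CPM in lymph node and at most 9.32 elsewhere.

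Of 11 transcription factors of quiescence and homing, 1 was higher and 6 lower in liver than in spleen, 1 and 3 against lymph node, and 4 and 2 in spleen against lymph node (medians −0.45, −0.02 and 0.16). Klf2 had 159 and 138 CPM in liver, 349 and 319 for spleen and 151 and 183 for lymph node. It was lower in liver than in spleen (−1.17; edgeR adjusted p 1.09e-08), as S1pr1 was, but liver over lymph node was −0.17 (adjusted p 0.296), where S1pr1 was lower by a log2 fold of −0.97. Tcf7 and Id3 both rose from liver through spleen to lymph node, with liver over lymph node at −1.34 and −2.73 (adjusted p 1.23e-09 and 2.46e-13). Klf2, Tcf7 and Id3 were also among the leading genes of the RTE-like cluster and Klf3 among those of an iNKT1-like cluster. Id3 was likewise among those of the unnamed cluster that made up 48.6% and 45.1% of lymph node cells. The part of the shares of these cells in the folds of the 4 genes was not tested. Klf3, which represses some of the genes that KLF2 activates, was lowest in lymph node (spleen over lymph node 2.13; adjusted p 4.47e-15).

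Of 8 genes of the insulin-like growth factor axis around Igfbp4, 4 were tested. Igf1r, the receptor whose ligands IGFBP4 binds, had 1.48 and 2.29 CPM in liver, 2.37 and 2.62 for spleen and 38.2 and 37.0 for lymph node. Its fold was −4.32 for liver over lymph node (edgeR adjusted p 8.69e-15) and −0.42 for liver over spleen (adjusted p 0.516). Igf1r was among the 10 leading genes of the iNKT17-like cluster, which made up 32.8% and 36.2% of lymph node cells and at most 1.87% elsewhere, and the part of this in its fold was not tested. The adaptor Irs2 was likewise higher in lymph node (−1.86 for liver over lymph node; adjusted p 4.81e-05). Of the immediate early genes, 5 of 12 were lower in liver than in spleen. Fos had 12.4 and 8.35 CPM in liver, 26.6 and 23.0 for spleen and 567 and 588 for lymph node, and Fosb 7.29 and 4.09, 3.42 and 2.62, and 73.9 and 84.3. Atf3 had 0 UMIs in both spleen libraries and 37 and 43 in lymph node, at least 13.3-fold higher.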

How the data were processed

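Libraries were made with the 10x Genomics Chromium 3′ v2 kit. The sample labels name the molecule as nuclear RNA although the study's methods describe sorted cells, and this was not settled. The authors aligned reads to mm10, selected cell barcodes and collapsed UMIs with Cell Ranger 3.1.0, and the deposited matrices hold raw, unnormalized UMI counts for each gene in each barcode. Values of other kinds, the barcodes and the gene identifiers with symbols, stand in separate deposited lists. The gene annotation version is not given in the sources used here.

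Cells kept had 300 to 4000 genes and at most 15% mitochondrial UMIs, which removed 55 barcodes, and no doublet caller was run. The study reports fewer cells after its quality control than these limits kept here, and the reason was not identified. The study's other mark of a doublet, Xist with a Y-chromosome gene, could not remove cells, since no library held both. Ribosomal protein, ribosomal RNA and haemoglobin genes (200 genes, 24.0% to 35.0% of UMIs) did not enter. Cells were clustered with scanpy 1.11.5 and leidenalg 0.10.2 (3000 variable genes without the 6 genes, 20 principal components, 20 neighbours, Leiden resolution 1). A cluster took a class name where the median log2 fold of the class's markers was at least 0.8 and at least 3 markers were 2-fold up. A cluster with RTE markers but very little Zbtb16 stayed unnamed, as did one whose immediate early genes led its iNKT2 markers. Remaining clusters with an iNKT1 marker median above 0 were iNKT1-like. These limits were chosen with the clusters in view, and the names need not match those of the study.

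Sums of UMIs per library (of at least 10 cells for a class) were tested with edgeR 4.0.16 in R 4.3.3 (filterByExpr, TMM, estimateDisp, robust glmQLFit and glmQLFTest) with organ as the only term, and a gene was called at an adjusted p below 0.05. The class by organ difference was tested as an interaction with library as a block. DESeq2 1.42.0, other filters, scalings, thinning depths and resolutions, and leaving out libraries or cell groups, were alternatives. The edgeR step was tested on simulated counts. Beside the 6 genes, those named are the 3 with the largest fold among those called in each list, and Klf2. Some genes that these rules name are not reported here. The 6 genes and the lists were chosen with earlier results of these data known.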

Additional observations from a re-analysis of the deposited data

Results flagged for a closer look

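For Igfbp4, the fold between liver and lymph node was compared between classes of cells. The log2 fold of liver over lymph node in iNKT17-like minus that in iNKT1-like cells was 7.08 (SE 1.81; edgeR interaction fit with library as a block). Igfbp4 was too low to be tested in iNKT17-like cells alone and passed in iNKT1-like cells only through the lymph node libraries. This value is therefore a description with no test. The counts behind it are small. For iNKT17-like cells, the Igfbp4 UMIs numbered 9 and 0 (liver), 1 and 0 (spleen) and 20 and 24 (lymph node), and for iNKT1-like cells 2 and 2, 8 and 10, and 3 and 1. After thinning, 0 of 67 liver and 19 of 1783 lymph node iNKT17-like cells (1.07%) had an Igfbp4 UMI. The liver count allows a share of up to 4.48%, so the thinned cells cannot show whether liver was higher. All unthinned UMIs of liver iNKT17-like cells were in library 1, and the class held 26 and 41 liver cells, while iNKT1-like cells numbered 36 and 71 in lymph node. In the edgeR interaction test, the same difference was 2.76 for S1pr1 (adjusted p 0.117), where 0.601% of 8148 genes were called. For Igfbp4 between liver and spleen it was 6.01 (adjusted p 0.127), so neither passed.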

How the results depend on the processing

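With 2 libraries per organ and few UMIs of Dapl1, Ccr7 and Igfbp4, single libraries decide some calls, and folds within classes are imprecise. In all cells, some alternative values of the members' folds changed direction or lost their call, and the cause of the changes was not tested. Leaving out a cluster, cycling cells or cells with a Cd8a or Cd8b1 UMI was chosen after seeing the data. When 1 library was left out, the log2 fold ranged from 0.35 to 0.59 for S1pr4 and from −0.65 to −0.36 for Cd69 (liver over lymph node), from −0.13 to 0.30 for Ccr7 (spleen over lymph node), and from 0.23 to 0.51 for Cd69 and from −3.52 to 0.021 for Dapl1 (liver over spleen). Spleen over lymph node turned negative for S1pr1 and Ccr7 after thinning (−0.24 and −0.36), without cells with a UMI of the B cell, myeloid, hepatocyte or CD8 lists (−0.0048 and −0.39) and without RTE-like cells (−0.37 and −0.70), for Ccr7 also without cycling cells (−0.086), and positive for Igfbp4 without the Actn1 and Lef1 cluster (0.15, with Dapl1 at −0.76). Liver over spleen lost its call for Cd69 in DESeq2 (0.36), after thinning (0.17), without the listed cells (0.29), RTE-like cells (0.19) or cycling cells (0.33). Dapl1 lost it after thinning (−2.82), without the listed cells (−1.73), cycling cells (−1.80) or cells with a Cd8a or Cd8b1 UMI (−2.10).

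With Dapl1 included, members called between liver and spleen numbered 5, and 3 after thinning, without the listed cells or without cycling cells, and 3 to 5 without 1 library. Between spleen and lymph node it was 1 (Cd69) without the Actn1 and Lef1 cluster, as it was in all cells when Dapl1 is not counted. In iNKT1-like cells the calls for liver over spleen depended on single libraries, as given above. Calls against lymph node are not counted there, since Igfbp4 needed the lymph node libraries to pass the filter on low counts. At resolution 1.5 or in DESeq2, at least 1 member other than Igfbp4 passed for liver over lymph node, beside 4.3% and 2.35% of all genes. In iNKT17-like cells it was 0 to 2 for liver over lymph node without 1 library. All genes called fell to 1622 (thinning) and 1419 (DESeq2) for liver over spleen, 2550 for liver over lymph node and 1125 for spleen over lymph node (DESeq2), with ranges of 1364 to 2405, 2409 to 4028 and 1025 to 1929 without 1 library. The lists together had 22 to 37 calls for liver over spleen without 1 library, against 38.

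Uncalled folds within classes changed sign. In iNKT1-like cells without 1 library, S1pr1 ranged from −2.57 to 7.97 (liver over lymph node) and from −2.24 to 8.31 (spleen over lymph node) and S1pr4 from −0.19 to 0.31 (spleen over lymph node, 0.0021 without spleen library 2), and Cd69 was −0.41 and −0.37 against lymph node at resolution 1.5. In iNKT17-like cells without 1 library, liver over spleen ranged from −0.59 to 1.01 for S1pr1 and from −0.45 to 0.84 for Cd69 (0.20 without liver library 1), and Cd69 was 0.12 at resolution 0.5. The organ with the largest share of cells changed to spleen at 2000 UMIs for S1pr1 (exact permutation p 0.133), Ccr7 (0.0667) and Igfbp4 (0.133), unthinned for S1pr1 (0.133) and Ccr7 (0.2), and without the Actn1 and Lef1 cluster for Ccr7 (0.133), and to liver for Cd69 unthinned (0.0667).

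Libraries with the same replicate number shared deviations only weakly (correlations 0.0977, 0.0825 and 0.0750 across genes). Counting error also lowers these values, so they cannot show whether the numbers pair libraries. The labels do not say so either, and the main fit did not pair them. A fit with the replicate number as a block called 3034, 4141 and 2113 genes for liver over spleen, liver over lymph node and spleen over lymph node. Without the block these numbers were 2619, 3826 and 1865. The block changed no call of a member in all cells (Cd69 liver over spleen 0.36, edgeR adjusted p 0.0172).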

Other observations

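The genes most like each member were listed over cells by a fixed rule, as the log2 odds of detection in the same thinned cells (median over the libraries with enough cells, over 5665 genes). These are descriptions with no test, and the cells share library and depth. For Cd69 they were Ttpal, Ccrl2, Tagap, Usp18 and Icam1, at 1.12 to 1.22, of which Usp18 belongs to the interferon and Icam1 to the NF-kB list used to name clusters. For S1pr1 they included Fars2, Pdxdc1, Epc2 and Slc39a3 (1.59 to 1.76), and for S1pr4 they were Abhd18, Pqlc3, Shprh, Smyd3 and Med15 (0.87 to 1.13). Smad4, Rnf123, Ms4a4c, Coa7 and Rasa3 stood nearest to Ccr7 (2.06 to 2.30 over 4 libraries). Ccdc34, Aldh18a1, Zbtb24 and Zfhx2 were among the nearest to Igfbp4 (2.13 to 2.42 over 4 libraries). Dapl1 had enough cells in 1 library only, where Dck, Klhdc2, Abhd10, Gm8369 and Papss1 came first (3.59 to 4.13).

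Over the 6 libraries, 256 to 574 of 10167 genes had a Pearson correlation above 0.9 with a given member, since libraries of an organ lie together, so the nearest genes there single out little. The closest were Mterf3, Cirbp and Gm6793 for S1pr1, Arid4a, Rapgef1 and Xrcc1 for S1pr4, and Pcsk1, Vamp5 and Commd2 for Ccr7. For Cd69 they included Sppl3 and Tapt1, and they were for Igfbp4 Inip, Plekhj1 and Slc29a3, and for Dapl1 Dhodh, Fbxw10 and Wbscr27.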
